A study of Mus musculus with 18 samples.

Results

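The common gamma chain cytokine receptor family was followed as 9 genes of the 49585 in the count table, in 18 RNA-Seq libraries of sorted mouse leukocytes in 6 groups. The members were Il2rg, Il7r, Il2rb, Il15ra, Il21r, Il9r, Il4ra, Crlf2 and Il13ra1, found in the table by Ensembl identifier and matched to symbols, and 9 of 9 had reads in every library. The family was chosen by gene name with earlier results for all 6 groups known. The members' levels and differences below are therefore a description and carry no p-value.

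All cells came from mice carrying a transgene for Kaede, a protein that turns from green to red under violet light. The Kaede mice of the inflamed groups received Th1-polarized T cells from OT-II CD45.1 donors and were immunized with ovalbumin in complete Freund's adjuvant. They were then challenged with heat-aggregated ovalbumin (HAO) in the footpad, which inflames the joint, or in the ear pinna, which inflames the skin. The tissue was photoconverted, and on the next day viable CD45+ Kaede Red+ cells were sorted from the tissue (joint nonmigrated and skin nonmigrated) or from the popliteal or auricular lymph node that drains it (joint migrated and skin migrated). The joint steady state and skin steady state groups were CD45+ cells labelled as having moved from an uninflamed joint or ear to the node. No HAO dose and no interval from immunization to challenge were recorded for these groups. Each group held 3 libraries, and each library of the inflamed groups was made from pooled male and female mice, so that no value belongs to 1 animal. The titles of the joint steady state libraries carry PBS and an unexplained KG, whereas those of the skin steady state libraries carry Naive, so site cannot be told apart from this difference in handling. The labels give no age, whereas the methods state an age range in weeks for all mice, not repeated here, and matching for age and sex.

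The common gamma chain, Il2rg, is the shared signaling subunit of the receptors for the interleukins IL-2, IL-4, IL-7, IL-9, IL-15 and IL-21, and it works through the kinase Jak3. Each cytokine adds its own chain: Il7r for IL-7, Il2rb for IL-2 and IL-15, Il15ra for IL-15, Il21r for IL-21, Il9r for IL-9 and Il4ra for IL-4. Crlf2 and Il13ra1 do not pair with the gamma chain itself. Crlf2 joins Il7r in the receptor for thymic stromal lymphopoietin (Tslp), and Il13ra1 joins Il4ra in the type II receptor through which IL-4 and IL-13 act on myeloid and nonhematopoietic cells. These receptors are known for keeping lymphocytes alive, for the expansion of T and NK cells and, through Il4ra, for the alternative activation of macrophages.

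The members lie on 6 chromosomes of GRCm38, with GENCODE M21 gene models used for positions and lengths. Il7r (chr15:9505788-9530176) and Il2rb (chr15:78479256-78495271) are both on the minus strand of chromosome 15. Il4ra (chr7:125552120-125579474) and Il21r (chr7:125603429-125633570) are neighbors on the plus strand of chromosome 7. Il2rg (chrX:101264378-101268255, minus strand) and Il13ra1 (chrX:36112110-36171259, plus strand) are X-linked. Il9r (chr11:32187541-32200279) and Crlf2 (chr5:109554709-109558993) are on minus strands, and Il15ra (chr2:11705290-11734317) is on a plus strand. Exons of Il2rg overlap Gm20489 on the same strand, where reads fitting both genes go uncounted, and exons of Il4ra overlap the antisense gene Gm44876. These partners held 1 read and 0 reads in total over the 18 libraries.

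Promoter windows of 250 bases before the start were found in RefSeq (GRCm38.p6) for 8 members. They are printed for the 4 members whose group means spread the most, Il13ra1, Il9r, Il15ra and Il7r, and capitals mark the match to a searched motif. The windows, written in the direction of transcription, were chr15:9529877-9530126 (minus strand), chr11:32200280-32200529 (minus strand), chr2:11705043-11705292 (plus strand, the first of 2 annotated starts) and chrX:36111858-36112107 (plus strand).
Il7r: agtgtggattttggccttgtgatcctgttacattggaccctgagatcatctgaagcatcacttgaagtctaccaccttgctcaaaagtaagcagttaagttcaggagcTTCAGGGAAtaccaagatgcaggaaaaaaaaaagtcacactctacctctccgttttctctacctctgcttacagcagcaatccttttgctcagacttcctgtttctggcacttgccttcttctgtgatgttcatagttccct
Il9r: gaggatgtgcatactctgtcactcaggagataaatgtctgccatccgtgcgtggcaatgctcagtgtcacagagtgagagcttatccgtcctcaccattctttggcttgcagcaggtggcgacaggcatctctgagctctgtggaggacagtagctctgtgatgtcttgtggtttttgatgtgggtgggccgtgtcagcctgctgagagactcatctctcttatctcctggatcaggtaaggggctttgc
Il15ra: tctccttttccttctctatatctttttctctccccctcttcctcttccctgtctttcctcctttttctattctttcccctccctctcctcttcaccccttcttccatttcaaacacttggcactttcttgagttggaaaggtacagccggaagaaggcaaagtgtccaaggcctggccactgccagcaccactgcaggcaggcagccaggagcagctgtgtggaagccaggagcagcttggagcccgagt
Il13ra1: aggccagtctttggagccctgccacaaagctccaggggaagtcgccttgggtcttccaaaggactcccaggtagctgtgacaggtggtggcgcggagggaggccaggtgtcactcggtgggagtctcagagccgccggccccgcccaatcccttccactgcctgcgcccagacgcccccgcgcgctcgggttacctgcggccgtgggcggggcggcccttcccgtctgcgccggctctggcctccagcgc
The motifs searched on both strands were TTCNNNGAA (STAT5 type), TTC and GAA separated by 4 bases (STAT6 type), and GAAA followed by GAAA after 2 bases (interferon regulatory factor type). The 1 match in any member window was TTCAGGGAA in Il7r, a STAT5-type match starting 142 bases before the RefSeq start used here. On the minus strand the GENCODE model of Il7r starts upstream of this window, at base 9530176. The window and its match therefore lie inside that gene model. Of 32851 promoter windows of this length, 7.02% held the STAT5-type letters, 5.85% the STAT6-type letters and 2.98% the interferon regulatory factor type. A match is a run of letters and not a shown binding site.

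Library totals ran from 19239531 to 43814403 assigned reads, and the 6 inflamed skin libraries (19239531 to 22528895) were smaller than all others (28577566 or more). These 6 also had column names of another style and 0.103 to 0.150% no-feature reads, against 0.254 to 0.624% in the others. Joint against skin in the inflamed groups therefore cannot be told apart from library handling. The same holds for skin migrated cells against skin steady state. Levels are in CPM, counts scaled to a common library size with the trimmed mean of M values (TMM), on which 3 reads equaled 0.0616 to 0.18 CPM. The lowest member count in any library was 47 reads, for Il13ra1 in skin steady state. Ptprc, which encodes the sorted antigen CD45, was at 1156 CPM or more in every library. The mixture of cells differed between groups. The summed level of 6 monocyte and macrophage markers was 16036 to 19022 CPM in joint nonmigrated and 3534 to 9124 CPM in skin nonmigrated cells, but 43.9 to 527 CPM in the 12 node libraries. The summed level of 9 T cell markers was 220 to 453 CPM in joint nonmigrated and 351 to 969 CPM in skin nonmigrated cells, but 1851 to 2799 CPM in the node libraries. The sum of 8 conventional dendritic cell markers was 2116 to 5596 CPM in migrated cells and 242 to 1310 CPM elsewhere. These 8 genes were split in direction between migrated and nonmigrated cells. In joint migrated cells 4 were called higher and 1, Itgax, lower, beside 21.4% of all genes called. In skin migrated cells 3 were called higher and 1, again Itgax, lower, beside 20.9% of all genes. In bulk samples fewer cells of a type and less RNA per cell cannot be told apart. The part of cell mixture in the differences below was not tested. Of the libraries, skin nonmigrated replicate 3 stood apart from its group with 351 CPM of T cell and 9124 CPM of monocyte and macrophage markers. Joint migrated replicate 1 stood apart with 2116 CPM of dendritic cell markers against 4663 and 5327 CPM in replicates 2 and 3.

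The shared chain Il2rg varied less between groups than most of the chains that join it, with a 2.04-fold range of group means. In joint nonmigrated replicates 1 to 3 its level was 219, 262 and 230.5 CPM, and in skin nonmigrated cells it was 297, 301 and 264 CPM. In migrated cells it was 424, 429.8 and 391 CPM from the joint and 423, 446 and 439 CPM from the skin. In steady state it was 442, 473 and 534 CPM (joint) and 501, 460.1 and 419 CPM (skin). The 4 node groups overlapped each neighbor in the order of levels, and every nonmigrated library lay below every node library. The log2 difference between migrated and nonmigrated cells was 0.81 ± 0.104 (SE) for the joint and 0.60 ± 0.104 for the skin, both under the fold limit for a call.

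**Figure D1:**
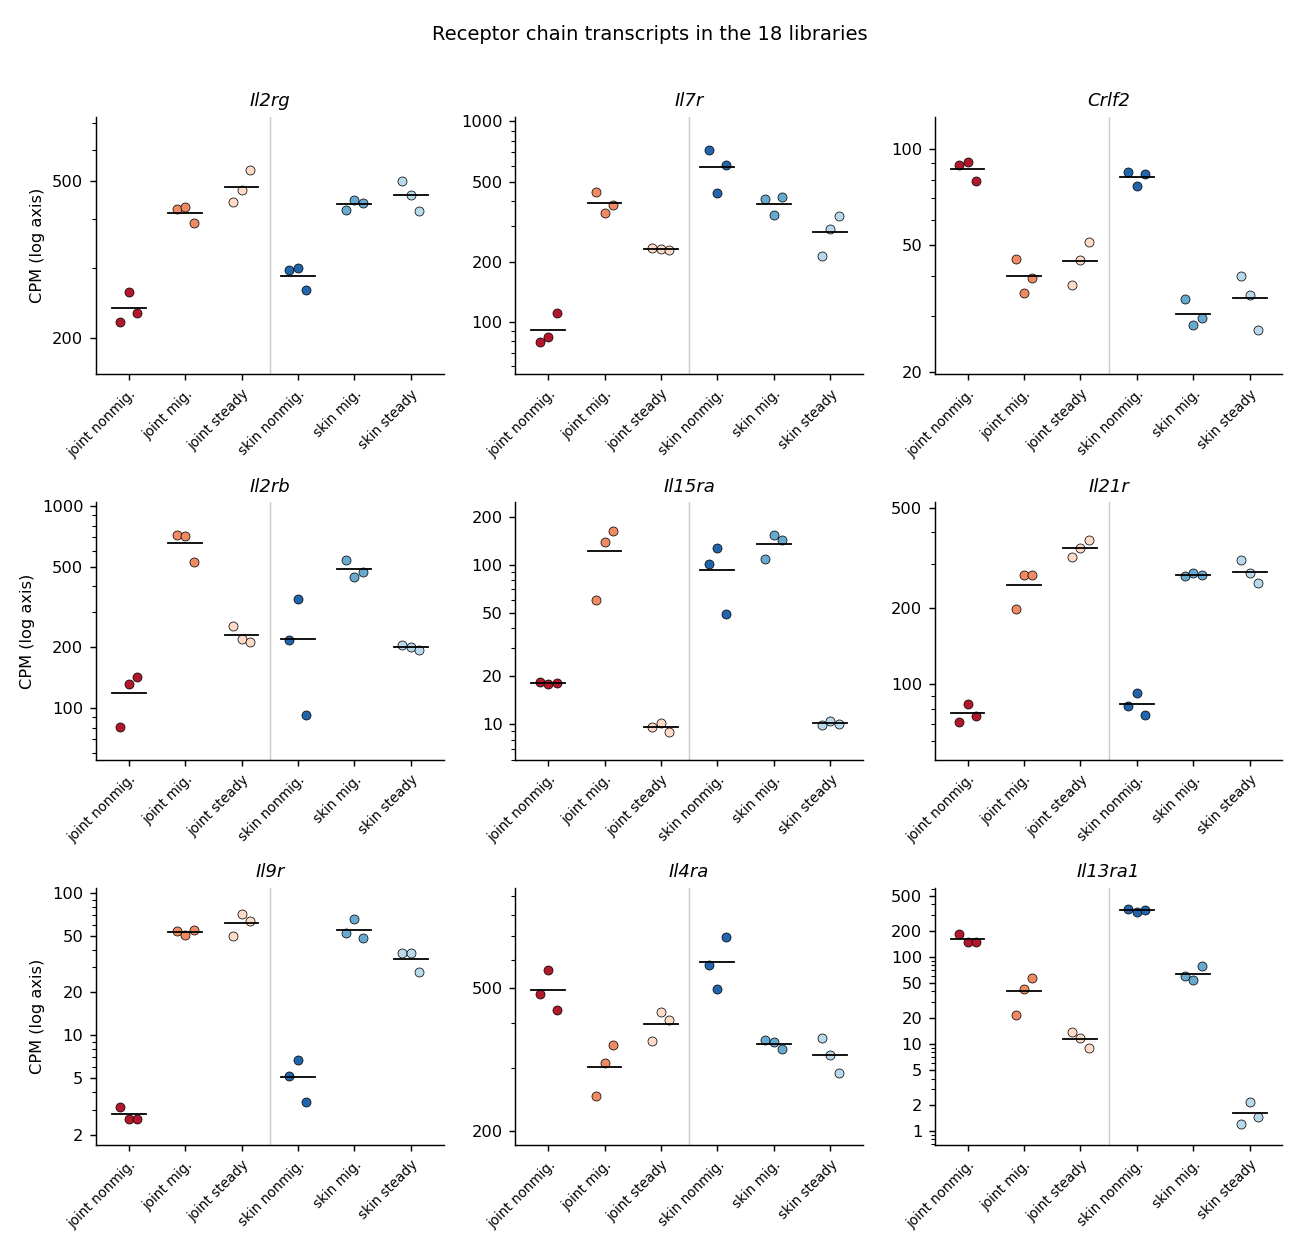
Level of the 9 receptor chains in the 18 libraries, in CPM on log axes, with 1 point per library, bars for the mean of 3, joint groups to the left of the gray line and skin groups to the right. Il7r was lowest in joint nonmigrated cells at 91.4 CPM and highest in skin nonmigrated cells at 591 CPM, whereas Il9r was low in both nonmigrated groups and Il13ra1 high in both.

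Il7r, the alpha chain that gives a receptor its specificity for IL-7, separated the 2 inflamed tissues. Its level in replicates 1 to 3 was 79.3, 83.8 and 111 CPM in joint nonmigrated cells and 723, 440.1 and 609 CPM in skin nonmigrated cells. These were the lowest and the highest group means of the 6, 91.4 ± 17.2 (SD, n = 3) and 591 ± 143 CPM. In joint migrated cells Il7r was at 446, 347 and 384 CPM, and in skin migrated cells at 409, 340.4 and 418 CPM. In joint steady state it was at 234, 232 and 227 CPM, and in skin steady state at 214, 291 and 338 CPM. The order ran from skin nonmigrated through joint migrated and skin migrated, 3 groups that overlapped in sequence, to the steady state groups, which overlapped each other, and then to joint nonmigrated cells below all others. Skin nonmigrated replicate 3 had 351 CPM of T cell markers with 609 CPM of Il7r. Joint nonmigrated replicate 2 had 346 CPM of T cell markers with 83.8 CPM of Il7r. The T cell marker list held no gamma or delta T cell receptor gene. Markers of group 2 innate lymphoid cells, which also carry Il7r, summed to 62.9 to 141 CPM over 5 genes in joint nonmigrated and 78.3 to 159 CPM in skin nonmigrated cells. Markers of keratinocytes, Krt5 and Krt14, were at 22.0, 128 and 252 CPM in skin nonmigrated cells and at most 0.547 CPM in any other library. The part of cell mixture in the level of Il7r was not tested.

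Crlf2, the Tslp-binding partner of Il7r, was higher in both nonmigrated groups than in every node library. It was at 89.3, 91.0 and 79.5 CPM in joint nonmigrated and 84.9, 76.6 and 83.3 CPM in skin nonmigrated cells, 2 groups that overlapped. In migrated cells it was at 45.3, 35.3 and 39.3 CPM (joint) and 33.9, 28.1 and 29.5 CPM (skin). In steady state it was at 37.6, 44.8 and 51.1 CPM (joint) and 40.1, 34.8 and 27.2 CPM (skin). The 2 chains of the Tslp receptor thus took different orders over the groups. Per kilobase of exon, the ratio of Crlf2 to Il7r was 3.51, 3.39 and 2.23 in joint nonmigrated cells and 0.366, 0.543 and 0.427 in skin nonmigrated cells. In each of the other 15 libraries the ratio was below 1. Tslp itself was at 1.40 CPM or less in all libraries.

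Il2rb, the signaling chain of the IL-2 and IL-15 receptors, was highest in migrated cells. In joint migrated cells it was at 718, 713 and 529.6 CPM, and in skin migrated cells at 539.6, 444 and 474 CPM. In joint nonmigrated cells it was at 80.4, 132 and 143 CPM. In skin nonmigrated cells the 3 libraries spread from 92.4 CPM in replicate 3 to 218 and 347 CPM in replicates 1 and 2, which also held the most T cell markers (861 and 969 CPM) and NK cell markers (180.2 and 309.6 CPM over 4 genes, against 119.8 in replicate 3). In steady state Il2rb was at 254, 221 and 213 CPM (joint) and 204, 201 and 193 CPM (skin). Migrated groups lay above all other groups and overlapped each other, and joint nonmigrated cells overlapped only skin nonmigrated cells. NK cell markers summed to 213 to 356 CPM in migrated cells from both sites and to 62.9 to 91.4 CPM in steady state.

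Il15ra, which binds IL-15 and presents it to neighboring cells, was lowest in the steady state nodes. In steady state it was at 9.61, 10.1 and 8.99 CPM (joint) and 9.87, 10.5 and 10.1 CPM (skin). In migrated cells it was at 60.2, 139.8 and 163 CPM from the joint and 108, 154 and 143 CPM from the skin. In tissue the sites parted, with 18.4, 17.8 and 18.2 CPM in joint nonmigrated and 100.4, 127 and 49.3 CPM in skin nonmigrated cells. The 2 steady state groups overlapped, as did skin nonmigrated cells with both migrated groups, and joint nonmigrated cells lay between these 2 levels without overlap. In joint migrated, skin migrated and skin nonmigrated cells the library with the least Il15ra also had the smallest sum of dendritic cell markers, namely joint migrated replicate 1 (60.2 and 2116 CPM), skin migrated replicate 1 (108 and 3989 CPM) and skin nonmigrated replicate 3 (49.3 and 612 CPM). In the other 3 groups it did not, and in both steady state groups the library with the least Il15ra had the largest sum (792 CPM in joint replicate 3 and 603 CPM in skin replicate 1). Joint nonmigrated libraries had 242 to 377 CPM of dendritic cell markers, and steady state libraries had 487 to 792 CPM. The part of these cells in the level of Il15ra was not tested.

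Il21r and Il9r, the specific chains for IL-21 and IL-9, were both low in the 2 nonmigrated groups and high in all 4 node groups. Il21r was at 71.1, 84.1 and 75.2 CPM in joint nonmigrated and 82.0, 92.9 and 75.8 CPM in skin nonmigrated cells. Migrated cells held 199.6, 271 and 272 CPM (joint) and 268, 276 and 272 CPM (skin). In joint steady state it reached 318, 346 and 371 CPM, above all other groups, and in skin steady state it was at 309, 277 and 251 CPM. The sites overlapped in both the nonmigrated and the migrated comparison.

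Il9r was the lowest member per length in inflamed tissue, at a mean of 0.561 CPM per kb in joint nonmigrated and 1.02 CPM per kb in skin nonmigrated cells. It was at 3.15, 2.59 and 2.59 CPM in joint nonmigrated and 5.16, 6.67 and 3.38 CPM in skin nonmigrated cells, from 65 to 115 reads per library. In migrated cells it was at 54.4, 51.0 and 55.1 CPM (joint) and 52.2, 65.9 and 48.1 CPM (skin). In joint steady state it was at 50.1, 71.0 and 63.3 CPM and in skin steady state at 37.8, 37.9 and 27.7 CPM, below the other node groups. B cell markers (5 genes) summed to 10.5 to 227 CPM in inflamed tissue. Skin migrated cells, at 142 to 228 CPM, overlapped joint nonmigrated cells, at 99.9 to 227 CPM. Joint migrated cells held 719 to 945 CPM of these markers and steady state cells 2478 to 4398 CPM. T cell markers were at 969 CPM or less in inflamed tissue and at 1851 CPM or more in every node library. The part of cell mixture in the level of Il9r was not tested.

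Il4ra, the IL-4-binding chain, varied least, with a 1.95-fold range of group means. It was at 479.7, 562 and 435 CPM in joint nonmigrated and 578, 496 and 695 CPM in skin nonmigrated cells, which overlapped. In migrated cells it was at 249.7, 309.8 and 346 CPM (joint) and 358, 353 and 339 CPM (skin). In steady state it was at 355, 430.0 and 408 CPM (joint) and 363, 326 and 289 CPM (skin). Every nonmigrated library was above every node library, the reverse of Il2rg.

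Il13ra1, the second chain of the type II receptor, varied most, with a 217-fold range of group means. It was at 183, 147 and 149 CPM in joint nonmigrated cells and 359, 328 and 343 CPM in skin nonmigrated cells. Migrated cells held 21.3, 42.9 and 57.8 CPM (joint) and 59.8, 53.7 and 77.7 CPM (skin). In steady state it was at 13.5, 11.7 and 8.94 CPM (joint) and 1.19, 2.13 and 1.44 CPM (skin). The migrated groups overlapped and every other pair of neighbors in the order was apart. Monocyte and macrophage marker sums were 3534 to 9124 CPM in skin nonmigrated and 16036 to 19022 CPM in joint nonmigrated cells, and their part in the level of Il13ra1 was not tested. Skin steady state had 43.9 to 70.7 CPM of these markers and joint steady state 383 to 527 CPM. Neutrophil markers differed between the steady state groups in the same direction, at 398 to 791 CPM over 6 genes in the joint group and 10.7 to 17.5 CPM in the skin group.

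Summed per kilobase of exon, the 9 chains were lowest in joint nonmigrated cells, at 357 ± 21.9 CPM per kb (SD, n = 3), against 591 ± 34.6 in skin nonmigrated, 611 ± 17.4 in joint migrated and 599 ± 10.4 in skin migrated cells. Steady state groups were at 523 ± 31.4 (joint) and 470.3 ± 25.3 CPM per kb (skin). Inflamed skin and migrated cells thus reached similar sums from different chains. Il2rg was the largest single part in 5 groups, from 27.8% of the sum in joint nonmigrated to 40.9% in skin steady state, whereas in skin nonmigrated cells Il7r (21.4%) and Il2rg (20.4%) were level within their SDs of 4.53 and 1.12 percentage points. The Il2rg part and the sums may be understated, since 728 of its 2387 exon bases are shared with Gm20489 and reads there go uncounted. Il13ra1 and Crlf2, the chains that do not pair with Il2rg, together with Il4ra made up most of what the joint nonmigrated libraries held beside Il2rg, at 12.1%, 16.2% and 22.9%. In joint migrated cells these 3 chains made up 1.80%, 4.39% and 8.24%, and Il2rb took 24.9% against 7.72% in joint nonmigrated cells.

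**Figure D2:**
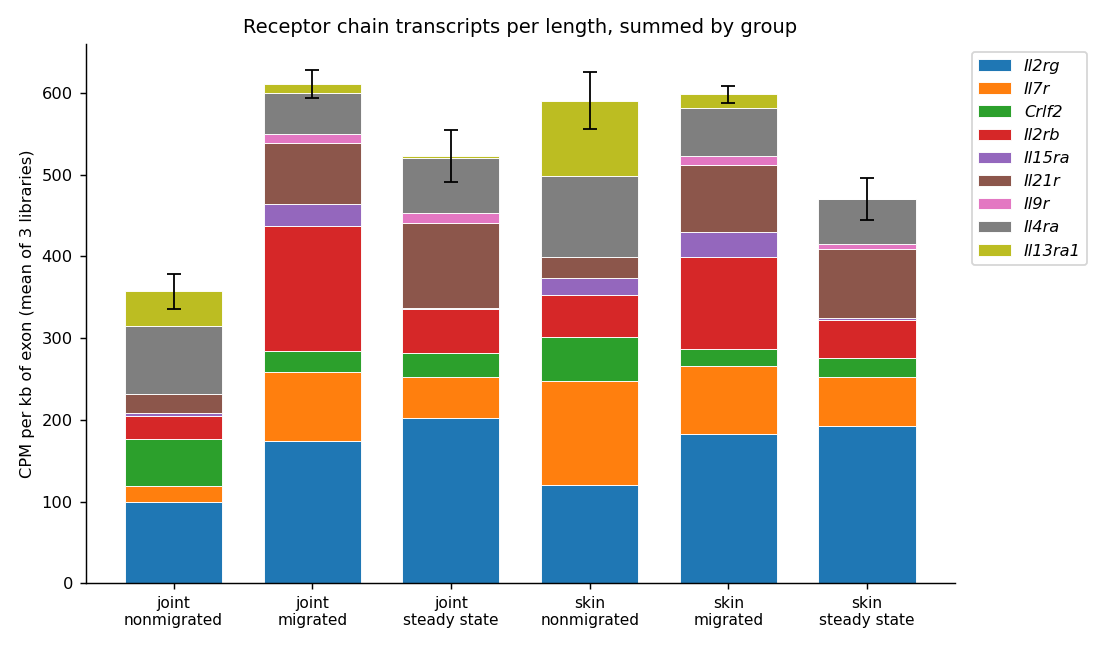
Stacked mean levels of the 9 receptor chains in CPM per kb of exon for each group, with black bars for the SD of the sum over 3 libraries. Joint nonmigrated cells had the smallest sum (357 CPM per kb), and the skin nonmigrated and migrated groups reached 591 to 611 CPM per kb with different chains.

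Ratios of partner chains within a library do not depend on the library's total. Il2rb to Il2rg was 0.943, 0.924 and 0.754 in joint migrated and 0.711, 0.554 and 0.601 in skin migrated cells, against 0.204 to 0.345 in joint nonmigrated and 0.222 to 0.319 in joint steady state. In skin nonmigrated cells it was 0.409, 0.641 and 0.195, which overlapped skin migrated cells, and in skin steady state 0.227 to 0.257. Il7r to Il2rg was above 1 in 2 libraries, skin nonmigrated replicates 1 and 3 (1.25 and 1.18), and was 0.164 to 0.247 in joint nonmigrated cells. The Il2rg length of 2387 bases includes 728 shared with Gm20489, where reads go uncounted. Ratios to Il2rg may therefore be too high in every group, and whether any exceeds 1 is unsure. Il13ra1 to Il4ra was 1.00, 1.07 and 0.799 in skin nonmigrated and 0.615, 0.423 and 0.553 in joint nonmigrated cells. In skin steady state this ratio was 0.00530 to 0.0106, so that Il4ra remained with little of its type II partner. Il15ra to Il2rb was 0.354 to 0.515 in skin nonmigrated cells and 0.0366 to 0.0503 in steady state. With the longest annotated transcript in place of the union of exons as the length, the group mean of Crlf2 to Il7r in joint nonmigrated cells was 2.46 in place of 3.04, and it was still above 1 in that group only.

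**Figure D3:**
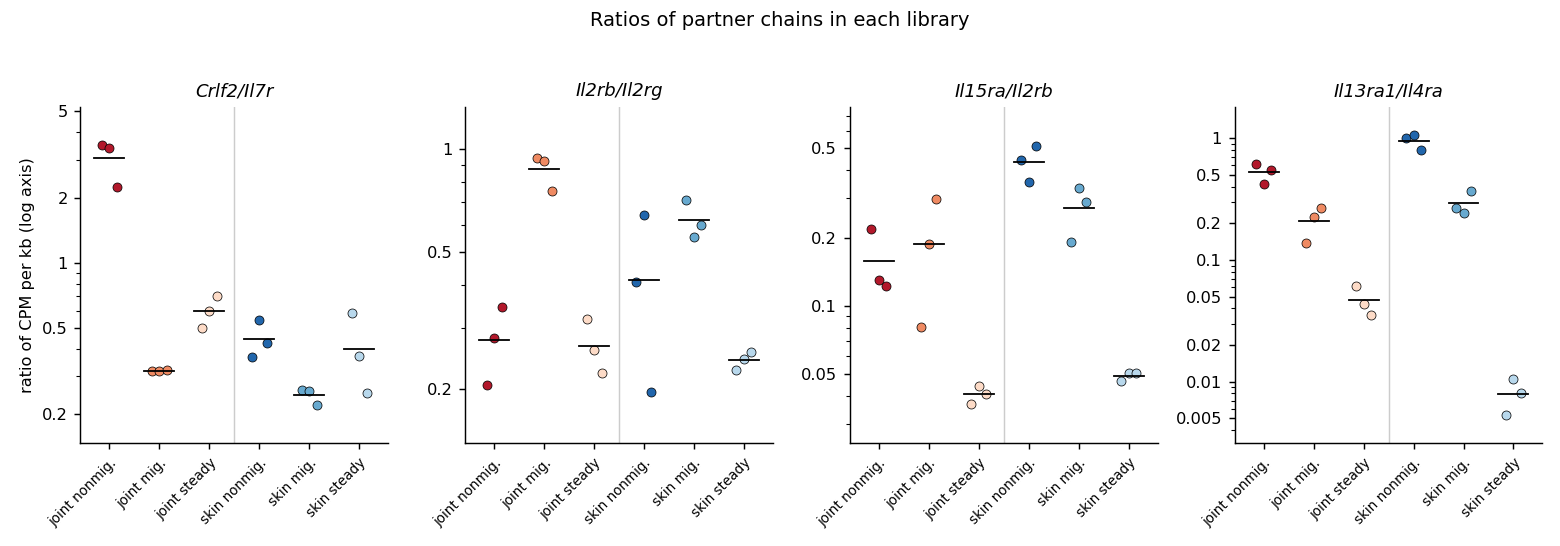
Ratio of partner chains in CPM per kb in each library on log axes, with bars for the mean of 3. Crlf2 exceeded Il7r in joint nonmigrated cells only (2.23 to 3.51), and Il13ra1 to Il4ra was 0.799 to 1.07 in skin nonmigrated cells and 0.0106 or less in skin steady state.

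The first comparison asked how cells that had left the inflamed joint differed from those that stayed. A gene was called when edgeR's quasi-likelihood test gave an adjusted p under 0.001 over all genes tested with an absolute log2 fold change above 1. By this rule 21.4% of 16777 genes were called in the joint. Of the 9 members 7 were called, 5 higher and 2 lower in migrated cells, which is given beside that share only as a count because the family was named with this comparison known. Higher were Il9r (log2 difference 4.27 ± 0.230 SE), Il15ra (2.74 ± 0.385), Il2rb (2.46 ± 0.391), Il7r (2.10 ± 0.198) and Il21r (1.69 ± 0.135). Lower were Il13ra1 (-1.97 ± 0.285) and Crlf2 (-1.11 ± 0.116). Il4ra was also lower but inside the fold limit, at -0.70 ± 0.156. The median over the members was 1.69 against 0.02 over all genes. The Il15ra difference was 2.49 to 3.08 over the 20 other settings, and the call of Il2rb was lost when any 1 joint nonmigrated library or joint migrated replicate 2 was left out. Il13ra1 lost its call in a fit of the groups compared alone.

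In the skin the same question gave 4 called members, 2 in each direction, beside 20.9% of all genes. Il9r was 3.45 ± 0.224 and Il21r 1.70 ± 0.136 higher on the log2 scale in skin migrated cells. Il13ra1 (-2.43 ± 0.290) and Crlf2 (-1.42 ± 0.118) were lower. Il2rb was 1.14 ± 0.375 higher with no overlap and Il15ra 0.54 ± 0.361 higher with overlapping libraries, neither called. Il7r took the direction opposite to the joint, at -0.61 ± 0.190, again not called. Without skin nonmigrated replicate 3 the direction of each of these held.

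**Figure D4:**
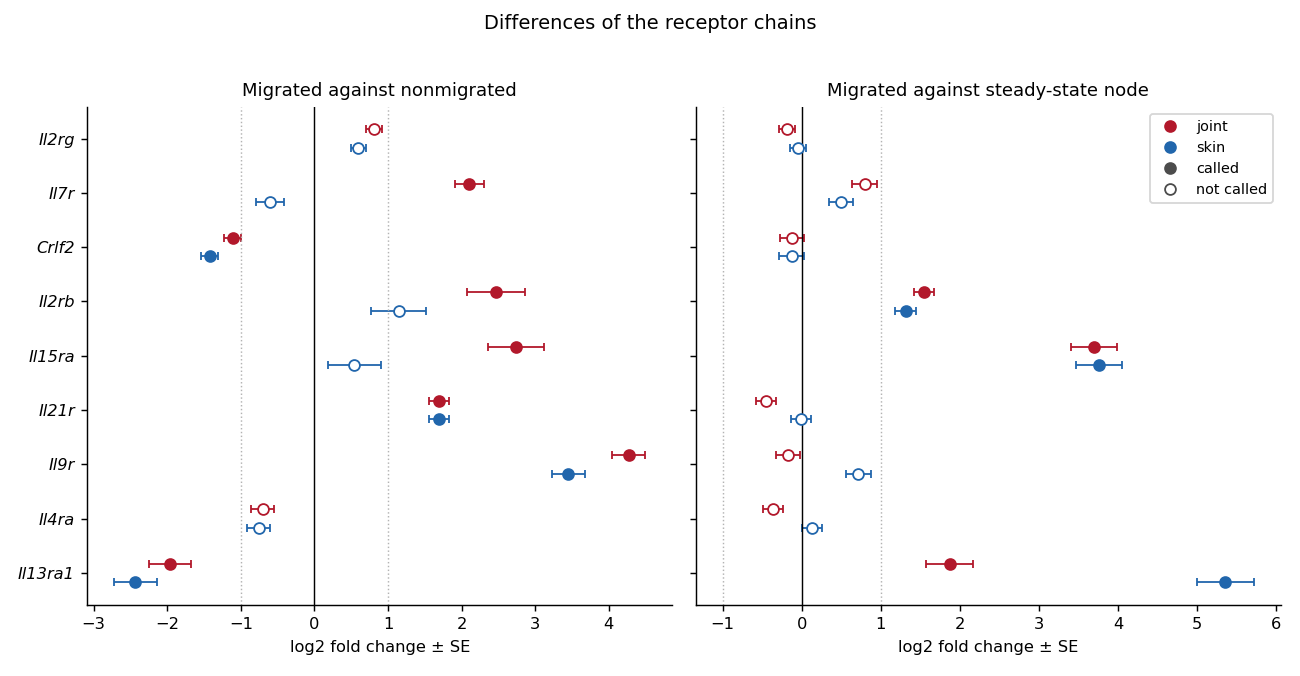
Log2 fold change with SE of each chain for migrated against nonmigrated cells (left) and for migrated cells against the steady state node (right), with red for joint, blue for skin, filled points for called genes and dotted lines at the fold limit. Il7r lay at 2.10 in the joint and -0.61 in the skin, and the other members had the same sign at both sites on the left.

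Taken site against site, the nonmigrated cells differed most in Il7r. It was the 1 member called, at -2.69 ± 0.202 (joint minus skin), beside 3.05% of all genes. These were 511 genes, which became 1372 without skin nonmigrated replicate 3 and 120 without joint nonmigrated replicate 2. Il15ra was -2.35 ± 0.381 and its libraries did not overlap, but it passed the rule in only 6 of 20 other settings. Il13ra1 was -1.11 ± 0.278, Il2rb -0.89 ± 0.374 and Il9r -0.87 ± 0.221, and of these Il2rb overlapped. Crlf2 (0.08 ± 0.115), Il21r (-0.13 ± 0.132) and Il4ra (-0.26 ± 0.155) overlapped and Il2rg was -0.28 ± 0.104.

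Between joint migrated and skin migrated cells 0 members were called, beside 0% of all genes. At an unadjusted p under 0.05 edgeR listed 2770 genes of 16777, and the DESeq2 Wald test called 177 genes, none of them a member. Without skin migrated replicate 2, edgeR called 22 genes, again without a member. Crlf2 was 0.39 ± 0.116 higher in joint migrated cells with no overlap, and the other 8 members overlapped. The largest difference among these was Il13ra1, at -0.65 ± 0.278, and Il7r differed by 0.01 ± 0.190.

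The migration difference itself was then compared between the sites with an interaction term, which called 0.119% of all genes (20), or 330 genes without skin nonmigrated replicate 3. Of the members Il7r was called, with a migration difference 2.71 ± 0.273 larger on the log2 scale in the joint than in the skin. The call held in 9 of 19 other settings, with values from 2.54 to 2.88. It was lost when any library but joint nonmigrated replicate 3 or skin nonmigrated replicates 2 and 3 was left out. The term was 2.20 ± 0.517 for Il15ra and 1.32 ± 0.526 for Il2rb, and it was within 0.82 of 0 for the other 6 members. These terms share libraries with the single-site comparisons above and are not independent of them.

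Migrated cells were also set against the node of the same site in steady state, which 15.9% of 17107 genes separated in the joint and 25.1% in the skin. Il15ra, Il2rb and Il13ra1 were called in each of these comparisons, all 3 higher in migrated cells. Il15ra was 3.69 ± 0.288 higher for the joint and 3.76 ± 0.290 for the skin, Il2rb was 1.55 ± 0.130 and 1.31 ± 0.129 higher, and Il13ra1 was 1.87 ± 0.299 and 5.35 ± 0.363 higher. For the joint, Il13ra1 lost its call without joint steady state replicate 2 or 3 and in a fit of the groups compared alone, and Il2rb lost its call at both sites in a fit of all 18 libraries. Il7r was inside the fold limit at 0.80 ± 0.154 (joint) and 0.50 ± 0.153 (skin), with no overlap at either site. Il9r was 0.72 ± 0.155 higher in skin migrated cells and -0.17 ± 0.152 in joint migrated cells, where the libraries overlapped. Il2rg, Il4ra, Il21r and Crlf2 were within 0.45 of 0 at both sites. Migrated cells also held 2116 to 5596 CPM of dendritic cell markers against 487 to 792 CPM in steady state, and T cell markers at 1851 to 2407 against 2028 to 2799 CPM. B cell markers went the other way, at 2478 to 4398 CPM in steady state. They were at 719 to 945 CPM in joint migrated and 142 to 228 CPM in skin migrated cells. The part of cell mixture in these differences was not tested.

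The 2 steady state nodes differed in 1.44% of genes and in 1 member. Il13ra1 was 2.83 ± 0.343 higher in the joint steady state cells, a call that held in 16 of 20 other settings and was lost without joint steady state replicate 2 or without skin steady state replicate 1 or 3. Il9r (0.83 ± 0.154), Il21r (0.30 ± 0.123) and Il2rb (0.19 ± 0.127) were higher without overlap and were not called. The difference of migrated from steady state cells was itself unlike between the sites in 0.889% of genes. Among members this again held for Il13ra1 alone, at -3.49 ± 0.447 (joint minus skin), which was called in 9 of 19 other settings. The call was lost when any library but joint migrated replicates 1 and 3 or skin migrated replicate 2 was left out. Its migrated levels were 21.3 to 57.8 and 53.7 to 77.7 CPM and its steady state levels 8.94 to 13.5 and 1.19 to 2.13 CPM, joint before skin. Site cannot be told apart here from the handling of the libraries, and the part of cell mixture was not tested.

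Of 8 cytokines that bind these receptors, 6 passed the filter and were tested in the node comparisons. Il7, Il15 and Il21 were called higher in migrated cells than in steady state at both sites, and none was called lower there. These counts stand beside 15.9% (joint) and 25.1% (skin) of all genes called. Il9 was at 3 reads or fewer in every library and was not tested. Il15, which acts through Il15ra and Il2rb, was at 0.934, 1.23 and 1.18 CPM in joint steady state and 14.7, 27.1 and 34.4 CPM in joint migrated cells. It was called higher in migrated cells than in steady state for the joint (log2 difference 4.54 ± 0.327, edgeR adjusted p = 1.43e-07) and for the skin (5.98 ± 0.363, adjusted p = 1.57e-08), with no overlap at either site. Il7 was 4.24 ± 0.691 higher for the joint (adjusted p = 0.0002) and 4.27 ± 0.677 for the skin (adjusted p = 0.000103), from steady state levels of 0 to 0.247 CPM to migrated levels of 0.657 to 2.88 CPM. The steady state libraries held 0 to 11 reads of Il7, and the fitted difference depends on the prior count. Il21 was 3.88 ± 0.265 (adjusted p = 9.53e-08) and 3.87 ± 0.278 higher (adjusted p = 6.69e-08), and it was the 1 cytokine called higher in joint migrated than in joint nonmigrated cells (2.69 ± 0.516, adjusted p = 0.00095). No cytokine was called between the migrated groups or between the steady state groups.

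Il4 and Il13, which act through Il4ra and Il13ra1, were highest where Il13ra1 was highest. Il4 was at 8.94, 9.18 and 2.18 CPM in skin nonmigrated cells and at 0.798 CPM or less in every other library. It was called lower in joint than in skin nonmigrated cells (-3.84 ± 0.538, edgeR adjusted p = 0.000602) and lower in skin migrated than in skin nonmigrated cells (-3.48 ± 0.539, adjusted p = 0.000212). Il13 was at 26.8, 27.8 and 4.94 CPM in skin nonmigrated cells and at 3.17 CPM or less elsewhere, with -3.33 ± 0.723 (adjusted p = 0.00649) and -3.75 ± 0.753 (adjusted p = 0.00128) in the same comparisons, past the fold limit but not the adjusted p of a call. Replicate 3 was the lowest skin nonmigrated library for both cytokines. In this group it had the smallest marker sums of T cells, group 2 innate lymphoid cells, NK cells and dendritic cells. It had the largest mast cell and basophil marker sum there, 283 CPM against 143 and 250 CPM. The part of these cells in the cytokine levels was not tested. Il2 was at 3.16 CPM or less throughout and was not called in any comparison.

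**Figure D5:**
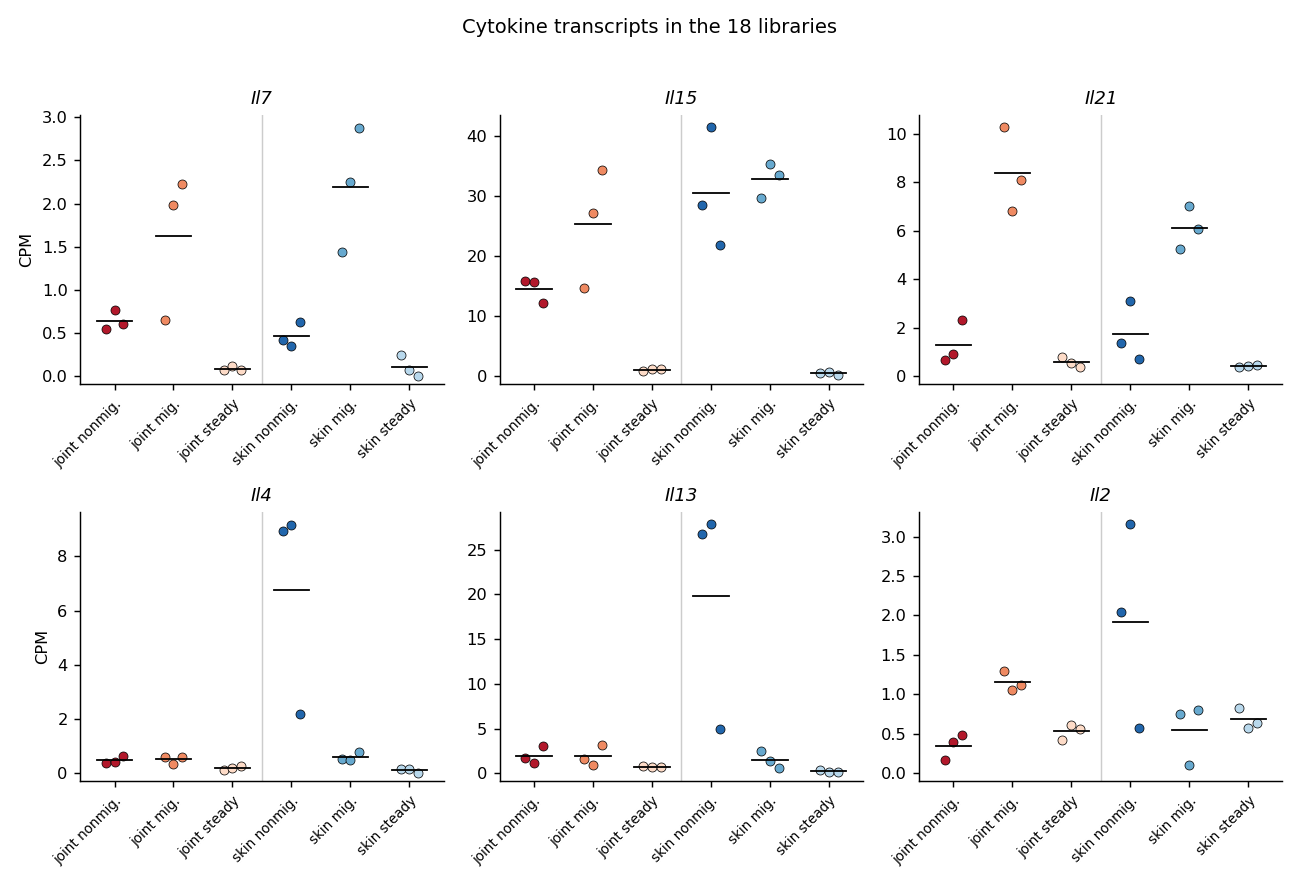
Level of 6 cytokines of these receptors in the 18 libraries, in CPM on linear axes, with 1 point per library and bars for the mean of 3. Il7, Il15 and Il21 were near 0 in steady state and higher in migrated cells, and Il4 and Il13 were highest in skin nonmigrated cells, with replicate 3 at 2.18 and 4.94 CPM.

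Of the 2 related chains outside the family, Il2ra, the high-affinity IL-2 receptor chain, was called higher in joint migrated than in joint nonmigrated cells (3.49 ± 0.431, edgeR adjusted p = 3.99e-05) and higher in migrated cells than in steady state at both sites (3.13 ± 0.141, adjusted p = 4.7e-09, and 2.88 ± 0.140, adjusted p = 2.52e-09). It was at 234, 280.3 and 329.9 CPM in joint migrated and 18.5, 21.9 and 34.8 CPM in joint nonmigrated cells. Il13ra2, the decoy receptor for IL-13, had 4 reads or fewer in every library and was not tested. With Il2rb and Il2rg, all 3 chains of the high-affinity IL-2 receptor were therefore higher in joint migrated than in joint nonmigrated cells. Il2rg was inside the fold limit, and the call of Il2rb was lost when any 1 joint nonmigrated library was left out. In the skin the 3 chains took the same direction, at 1.56 for Il2ra, 1.14 for Il2rb and 0.60 for Il2rg, none of them called.

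Of 9 kinases and STAT factors that carry these signals, 3 were called higher in joint migrated than in joint nonmigrated cells and none lower, beside 21.4% of all genes called in either direction. They were Jak3, the kinase bound to Il2rg (1.40 ± 0.185, edgeR adjusted p = 6.89e-05), Stat5a (1.20 ± 0.203, adjusted p = 0.000391) and Jak2 (1.14 ± 0.216, adjusted p = 0.000876). Jak3 was at 79.8, 109 and 125 CPM in joint nonmigrated and 262, 303 and 261 CPM in joint migrated cells. In the skin Tyk2 alone was called (1.08 ± 0.159, adjusted p = 0.000147), and Jak3 was 0.80 ± 0.183. Against steady state, Jak2 and Tyk2 were called higher at both sites and Stat3 and Stat5a in the skin. Stat5b, Stat6 and Jak1 were not called in any comparison.

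Of 12 genes known to respond to STAT5, 5 were called higher and 3 lower in joint migrated than in joint nonmigrated cells, and 2 higher and 4 lower in the skin, beside 21.4% and 20.9% of all genes called. Socs2, a feedback inhibitor, was at 13.5, 13.3 and 17.6 CPM in joint nonmigrated and 137, 282 and 337 CPM in joint migrated cells (4.09 ± 0.432, edgeR adjusted p = 1.32e-05), and it was called higher in skin migrated cells (2.10 ± 0.396, adjusted p = 0.000825). It was 6.18 ± 0.311 and 6.60 ± 0.316 higher in migrated cells than in steady state (adjusted p = 7.65e-09 and 2.36e-09). Pim2, a kinase that supports survival, was 2.38 ± 0.300 higher in joint migrated cells (adjusted p = 4.75e-05), and Ccnd2, a cyclin, was 2.35 ± 0.314 higher (adjusted p = 7.35e-05). Myc was 1.94 ± 0.260 higher in skin migrated cells (adjusted p = 7.55e-05). Against steady state 2 of the 12 were called higher and 0 lower in the joint, beside 15.9% of all genes. In the skin 5 were called higher and 1, Bcl2, lower, beside 25.1% of all genes. Among the higher genes Cish, a further feedback inhibitor, was at 1.49 ± 0.242 (joint) and 1.71 ± 0.246 (skin, edgeR adjusted p = 0.000202 and 4.49e-05). Socs1, which restrains signaling by these receptors, was at 108, 119 and 95.1 CPM in skin nonmigrated against 22.5, 18.8 and 20.2 CPM in joint nonmigrated cells (joint minus skin -2.39 ± 0.119, adjusted p = 3.16e-06). The list was split in direction, with Socs3, Osm and Mcl1 lower in migrated cells at both sites.

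Of 9 genes known to respond to IL-4 and STAT6, 3 were called higher and 5 lower in joint migrated than in joint nonmigrated cells, and 1 higher and 4 lower in the skin, beside the same shares of all genes. Arg1, Mrc1 and Chil3, lower at both sites, are genes of alternatively activated macrophages. Arg1 was -9.51 ± 0.654 in the joint (edgeR adjusted p = 7.83e-07) and -9.89 ± 0.661 in the skin (adjusted p = 5.16e-07). Higher at both sites was Fcer2a, the low-affinity IgE receptor of B cells, at 4.65 ± 0.495 (adjusted p = 1.38e-05) and 4.49 ± 0.576 (adjusted p = 5.38e-05). Against steady state the chemokine gene Ccl22 was 10.08 ± 0.446 higher in the joint (adjusted p = 4.7e-09) and 8.80 ± 0.411 in the skin (adjusted p = 1.96e-09), and Fcer2a was lower at both sites, at -2.43 ± 0.215 (adjusted p = 8.84e-07) and -5.29 ± 0.248 (adjusted p = 2.04e-09). Arg1, Mrc1, Chil3 and Fcer2a are also markers of macrophages and B cells, and Ccl22 of dendritic cells, whose marker sums differed in the same directions, and the part of cell mixture in them was not tested.

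The genes whose levels most resembled each member over the 18 libraries, by Pearson's r on log2(CPM + 1), are given as a description, since libraries of a group are not independent and share their cell mixture. For Il7r they were Armcx4 (0.905), Spef2 (0.888) and Trdc (0.884). Spef2 lies on the same strand as Il7r with 48.0 kb between the gene models, and Trdc encodes the constant region of the delta T cell receptor chain. For Il15ra they were Msrb3 (0.990), Jak2 (0.986) and Ndrg4 (0.985), and for Il13ra1 they were Nod2 (0.986), Tnfaip2 (0.984) and Adam8 (0.984). For Il2rg they were Cd8b1 (0.981), Rps6 (0.978) and Chst10 (0.977), and for Il2rb they were Rnf43 (0.969), Il18r1 (0.963) and Tmem198 (0.962). Rab30 and Dtx1 were among the first 3 for both Il9r (0.984 and 0.981) and Il21r (0.985 and 0.984). For Crlf2 they were Hcls1 (0.971), Cnnm4 (0.971) and Pld3 (0.970), and for Il4ra they were Tor3a (0.935), Ccdc86 (0.932) and Stau1 (0.930).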

How the data were processed

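Bulk RNA-Seq of sorted CD45+ cells, Kaede Red+ in the 4 inflamed groups, gave 18 libraries in 6 groups of 3, grouped by their labels. The authors trimmed paired reads with Trim Galore, aligned them with TopHat2 to mm10 with Ensembl transcripts and counted reads per gene with HTSeq in its default mode, and the deposited counts are raw whole numbers per gene. The labels also name FastQC, Cufflinks and DESeq2 among the submitters' tools, without versions. Of the deposited table, 5 summary lines were removed, 49326 of 49585 genes matched GENCODE M21, and 18650 were at 0 in all libraries. Default HTSeq counting drops reads that overlap more than 1 gene.

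Counts were tested with edgeR 4.0.16 (TMM, filterByExpr with a minimum count of 10, quasi-likelihood F test) in R 4.3.3 (limma 3.58.1). Separate fits took the 12 inflamed libraries (16777 genes) and the 12 node libraries (17107 genes), with group as the only factor, and p-values were adjusted by Benjamini-Hochberg over all genes of a comparison. The SE of a log2 fold change was taken as its size over the root of the F statistic. A call needed an adjusted p under 0.001 and an absolute log2 fold change above 1. The study's methods name 0.05 and DESeq2, and both were alternatives (DESeq2 1.42.0). All 9 members passed the filter in both fits. The floor was 3 counts. Per-length levels divide CPM by the union of annotated exons. Bases shared with another gene were not taken out of this length.

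The members, the gene lists and the marker lists were chosen with earlier results of these data known. Named genes are all members, the called genes of each list with the largest differences (at most 3 in each direction), cytokines, kinases and related chains needed to account for their lists, and the 3 genes most like each member. Some listed genes are not reported here by name. Scripts were tested on simulated counts. Same-group libraries differed by 14.7 to 117.1 times the counting error (chi-square per degree of freedom), so none was a duplicate, and p-values measure the spread between these pooled libraries. Intervals from counting alone were not used. Figures were drawn with matplotlib 3.10.9 from tables made in Python 3.11.15. Alternatives were another threshold, size factors, test, filters, sets of libraries in the fit, a replicate block, each library left out, longest transcripts for length and rank correlation for likeness.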

Additional observations from a re-analysis of the deposited data

Results flagged for a closer look

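The following results differed between joint and skin by an interaction term in edgeR that passed the call rule. In none of them can site be told apart from the handling of the libraries. The migration difference of Il7r was 2.71 larger on the log2 scale in the joint than in the skin, a description with no p-value since the family was named with this result known. Socs1, a list gene, had a migration difference 2.51 larger in the joint (SE 0.163, edgeR adjusted p = 7.99e-05), being 1.03 higher in joint migrated and -1.48 in skin migrated cells against the nonmigrated cells of the site. The difference of migrated from steady state cells in Il13ra1 was -3.49 (joint minus skin). The same term was 2.86 for Fcer2a (SE 0.300, edgeR adjusted p = 0.000108) and -1.23 for Socs3 (SE 0.153, edgeR adjusted p = 0.000373). Groups of 3 are too small for the test of a single outlying value used here, and all columns of the count table were used.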

How the results depend on the processing

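Of 1602 member values under the alternatives, 1578 stayed within 1 SE of the reported value, 24 moved further and none of the called values changed sign. The 1602 include the other threshold, which reuses the main fit and cannot move a value. They also include fits without a library of neither group compared, which can move it little. The share within 1 SE is thus raised by these settings. Between joint and skin nonmigrated cells 1 member was called, and this became 3 at an adjusted p under 0.05, 2 with the DESeq2 Wald test, 2 with no filter, 2 in 1 fit of all 18 libraries and 0 in a fit of the groups compared alone. All-gene calls there were 0 to 2400 in place of 511. Leaving out a library gave 1 to 3, with Il15ra added without joint migrated replicate 1, and Il15ra and Il9r without skin nonmigrated replicate 3. For the migration difference between sites, 1 member became 2 at an adjusted p under 0.05 and 2 with DESeq2, and leaving out a library gave 0 to 1. All-gene calls there were 1 to 1029 in place of 20. For the steady state nodes, and for the migrated against steady state difference between sites, leaving out a library gave 0 to 1 in place of 1. All-gene calls over all alternatives were 83 to 665 in place of 246 and 48 to 1045 in place of 152. Both were lowest without skin steady state replicate 1 (the former also without replicate 3). In joint migrated against nonmigrated cells leaving out a library gave 6 to 7 members, in skin 4 to 4, and all-gene calls over all alternatives were 2537 to 5757 and 2111 to 5940. Against steady state it gave 2 to 3 (joint) and 3 to 3 (skin), and all-gene calls over all alternatives were 2071 to 4143 and 3525 to 6249.

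The replicate numbers are not stated to mark shared mice. Same-numbered libraries correlated at 0.021 to 0.254 within an inflamed site and at -0.185 to -0.021 between node groups, and each of the 6 inflamed pairs but joint replicate 1 correlated best with its own number. With a replicate block, called members were 6 in place of 7 (joint migrated against nonmigrated, Il2rb lost) and 2 in place of 3 (joint migrated against steady state, Il13ra1 lost). They were 0 in place of 1 for the migration difference between sites, the steady state nodes and the migrated against steady state difference between sites. The other comparisons kept their count. By rank correlation, the 3 genes most like each member were others, for example Sema3d for Il7r. The depth of 19239531 reads or more left no member near the floor.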

Other observations

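Beside the family, 20 other class I cytokine receptor genes took both directions. In joint migrated against joint nonmigrated cells 3 were called higher, Il27ra (log2 difference 2.78 ± 0.251, edgeR adjusted p = 4.46e-06), Il23r (2.48 ± 0.406, adjusted p = 0.000314) and Il12rb1 (1.66 ± 0.207, adjusted p = 4.49e-05), and 8 were called lower, beside 21.4% of all genes called in either direction. The lower genes included Osmr, a chain of the oncostatin M receptor (-5.73 ± 1.00, edgeR adjusted p = 0.000502), and Csf3r, the G-CSF receptor of neutrophils (-4.81 ± 0.536, adjusted p = 1.88e-05). Csf3r is also one of the neutrophil markers, which summed to 4964 to 15250 CPM in joint nonmigrated and 33.2 to 86.1 CPM in joint migrated cells. In the skin 1 was called higher, again Il27ra (2.48 ± 0.250, adjusted p = 9.83e-06), and 5 were called lower, beside 20.9% of all genes.

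Against steady state, 6 of the 16 tested were called higher and 2 lower in joint migrated cells, and 8 higher and 2 lower in skin migrated cells, beside 15.9% and 25.1% of all genes. Csf2rb2, which encodes the IL-3-specific beta chain, was 3.89 ± 0.261 higher for the joint (edgeR adjusted p = 8.2e-08) and 5.09 ± 0.278 for the skin (adjusted p = 6.68e-09). Ghr, the growth hormone receptor, was 6.06 ± 0.797 higher in skin migrated cells (adjusted p = 1.94e-05). Csf2rb, the shared chain of the GM-CSF, IL-3 and IL-5 receptors, was 3.22 ± 0.281 higher for the joint (edgeR adjusted p = 7.55e-07) and 5.39 ± 0.313 for the skin (adjusted p = 1.09e-08). Il12rb2, a chain of the IL-12 receptor, was 2.92 ± 0.206 higher for the joint (adjusted p = 1.22e-07) and 4.17 ± 0.220 for the skin (adjusted p = 4.84e-09). Il5ra was lower at both sites, at -2.19 ± 0.280 (adjusted p = 2.54e-05) and -4.37 ± 0.336 (adjusted p = 1.22e-07). Il12rb2 was also called lower in joint than in skin nonmigrated cells (-2.90 ± 0.400, adjusted p = 0.00054). The part of cell mixture in these differences was not tested.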
